A study of Mus musculus with 384 samples.

Results

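Foxp3-positive CD4 T cells of mouse B16F10 melanomas, the regulatory T cells of the tumour by the expression of their lineage factor, were selected on their own RNA value. A CD4 cell was taken when it had 1000 or more genes at 1 FPKM (reads scaled to gene length and to sequencing depth, the deposited unit) or more and Foxp3 itself at 1 FPKM or more. This gave 64 cells, set against 88 Foxp3-negative CD4 cells that passed the gene number. They were 42.1% of the kept CD4 cells, 21.3% of all kept cells and 17% of the single-cell wells in the series, which has 4 plates of 94 such wells. There were 27 on the wild-type plate, beside 47 Foxp3-negative cells, and 37 on the plate labelled knockout, beside 41 Foxp3-negative cells.

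Single T cells from tumours were profiled by Smart-seq2, which copies full-length transcripts of each cell in its own well and uses no molecular identifiers. B16F10 is a transplantable melanoma line of the C57BL/6 strain, and the mice were C57BL/6 of wild-type or Il27ra knockout genotype. Il27ra encodes the specific chain of the receptor for the cytokine IL-27, and the series asks which T cell genes in the tumour go with that cytokine. The 2 plates used here carry CD4 in their titles, although the treatment label names only CD8+ cells. The wild-type plate is titled WT4 and the other KO4, read as 1 source per genotype, so genotype, source and plate cannot be told apart. The labels state neither the age of the mice nor the day of harvest. Il27ra was detected in 10 of 27 and 19 of 37 Foxp3-positive cells of the wild-type plate and the plate labelled knockout, and the deleted part of the gene is not given, so this value does not check the labels. That plate is called by its label throughout.

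Regulatory T cells restrain other T cells and are held in their state by the transcription factor Foxp3. They depend on IL-2, which they bind through a receptor that includes Il2ra (CD25), and they carry receptors of the TNF family such as Tnfrsf4 (OX40) and Tnfrsf18 (GITR), and the inhibitory receptor Ctla4. In tumours they are known for an activated state with high levels of these receptors, and they can hold back responses against the tumour.

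Foxp3 (chromosome X, 7573644 to 7595245; coordinates here and below are GRCm38, the assembly behind mm10) separated the CD4 cells into groups with few values between them. On the wild-type plate the Foxp3-positive cells had 1.12 FPKM at the lowest, 835.9 at the median and 2774 at the highest. The values on the plate labelled knockout were 1.08, 982.8 and 2155 FPKM. Most members lay far above the threshold, with 23 and 34 cells at 100 FPKM or more and 4 and 3 cells between 1 and 100. Just inside the threshold were cells at 1.12 and 5.18 FPKM on the wild-type plate and at 1.08 and 43.06 on the plate labelled knockout, and just outside were cells at 0.66 and 0.41 and a cell at 0.43. These values chose the cells and are given as a description. Foxp3-positive cells were 36.5% of the CD4 cells kept from the wild-type plate (25.6 to 48.5, Clopper-Pearson 95%) and 47.4% of those from the other (36 to 59.1). All intervals of shares cover counting error only, and reads of amplified cDNA are not independent molecules. The population wells of the plates had 966.7 and 961 FPKM, and the no-cell wells had 0. In a population well, fewer cells of a type and less RNA per cell cannot be told apart.

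The members held the lineage markers that their titles call for. Cd4 was detected, at 1 FPKM or more, in 24 of 27 and 34 of 37 of them, and Cd8a in 1 and 0. Cd8b1, the other CD8 chain, was detected in 9 of 27 members, at up to 709.3 FPKM, and in 9 of 37, at up to 4.79, and in 10 of 47 and 9 of 41 Foxp3-negative cells, at up to 341.8 and 3.38. Il2ra, Tnfrsf4 and Tnfrsf18 are other markers of regulatory T cells and did not choose the members. All 3 were detected together in 15 of 27 wild-type members (55.6%, interval 35.3 to 74.5) and 24 of 37 labelled knockout (64.9%, 47.5 to 79.8). None of these 3 was detected in 2 wild-type members and in 0 of 37 labelled knockout, a count that allows a share of up to 8.11% when a count of 0 is read as at most 3 counts, the rule for all such limits here (Clopper-Pearson 9.49%). In the Foxp3-negative cells the 3 were found together in 0 of 47 on the wild-type plate, which allows up to 6.38% (Clopper-Pearson 7.55%), and in 6 of 41 on the plate labelled knockout (14.6%, 5.57 to 29.2). Whether Foxp3 RNA was missed in those 6 cells was not tested. The wild-type member at 1.12 FPKM had 0 FPKM of Il2ra, Tnfrsf4, Tnfrsf18 and Ctla4, whereas the cell at 1.08 FPKM on the plate labelled knockout had 355.7, 1503, 1759 and 1007 FPKM of them.

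Members and Foxp3-negative cells of a plate were compared by the mean over cells of log2(FPKM + 1), and a difference below is always Foxp3-positive minus Foxp3-negative on that scale. It carries the share of cells with detection and understates changes of low genes, so it is not a fold change of mean RNA. Each plate gives 1 difference per gene, and cells of a plate are not replicates. A fit with limma over both plates, with the plate as a block, put 3.52% of 6271 genes higher in the Foxp3-positive cells and 0.845% lower at an adjusted p under 0.05, with Foxp3 left out. The direction was the same in both plates and the size 1 or more in each for 5.47% of genes higher and 1.1% lower, and 51 genes (0.813%) passed that size in opposite directions. Both limma and that size were met by 2.84% higher and 0.558% lower.

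Those calls rest on 1 residual degree of freedom and a spread pooled over all genes, and their number moved with the settings. Centring each plate on its median gene, which lay at 0.27 in wild type and 0.10 in the plate labelled knockout, gave 2.2% higher and 1.15% lower, and pairing cells on their number of detected genes gave 1.53% and 0.813%. With Foxp3 at 10 FPKM or more as the threshold, which moved 3 cells, limma called 0.542% and 0.0957%, while the genes alike in both plates stayed at 5.49% and 1.12%. Arithmetic means, or pairing on estimated depth, left 2 genes higher and 0 lower by limma, while 6.52% and 6.06% were higher and 2.98% and 2.17% lower at an unadjusted p under 0.05. Members had a median of 2316 and 2076 detected genes and Foxp3-negative cells 1966 and 2095. The fitted FPKM worth of 1 read in a gene of 2 kb, which is lower in deeper libraries, had medians of 0.867 and 0.844 in members and 0.933 and 0.980 in Foxp3-negative cells, so members lay on the deeper side on both plates. A permutation of 2 plates cannot go below p = 0.5. The results are therefore led by the values of each plate.

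**Figure D1:**
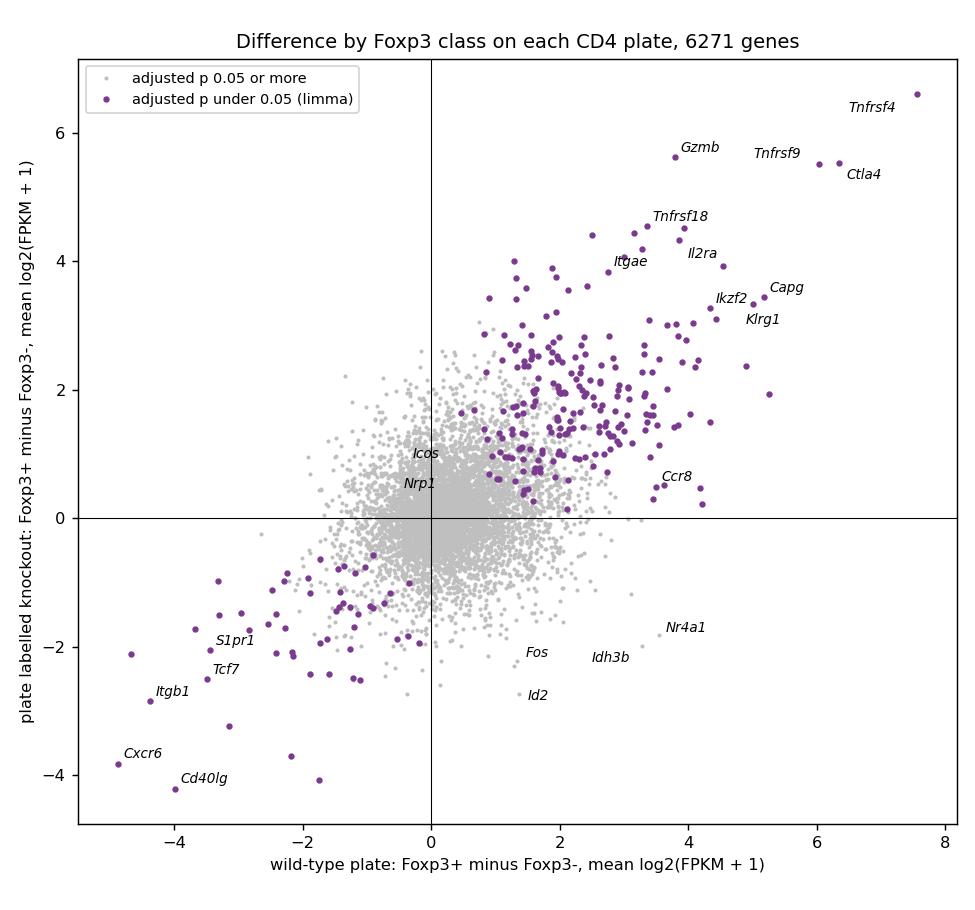
Each point is a gene, at its difference between Foxp3-positive and Foxp3-negative CD4 cells on the wild-type plate (horizontal) and on the plate labelled knockout (vertical), both as mean log2(FPKM + 1). Tnfrsf4 lies farthest at upper right (7.57 and 6.61), Cd40lg and Cxcr6 at lower left, and Nr4a1, Idh3b and Id2 lie at lower right, higher on one plate and lower on the other.

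Known genes of regulatory T cells stood together on the higher side of both plates. Of 27 signature genes besides Foxp3, 24 were detected in at least 10% of the CD4 cells and were tested. By limma 19 were higher and 0 lower, beside 3.52% and 0.845% of all genes tested, and 19 met the size of 1 in both plates. Their median difference was 2.56 in wild type and 2.34 on the plate labelled knockout, beside 0.27 and 0.10 over all genes tested. A gene can pass the detection filter through the cells where it is high, and the list was assembled with earlier results of these data known, so the count describes the list and is no independent evidence of its direction. The same limit holds for the counts of all other gene lists below. Cell by cell, members had a median of 13 and 14 of the 27 genes detected (range 1 to 19 and 6 to 19), and Foxp3-negative cells had 4 and 5 (0 to 10 and 1 to 14). The ranges of single cells overlapped.

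Among transcription factors, Ikzf2 (Helios; chromosome 1, 69531214 to 69687245), which marks most regulatory T cells of thymic origin, was detected in 22 of 27 members against 3 of 47 Foxp3-negative wild-type cells, and in 28 of 37 against 7 of 41 on the plate labelled knockout. Its mean log2 value was 4.78 ± 2.92 (SD over 27 cells) against 0.44 ± 1.67, and 4.20 ± 3.08 (37 cells) against 0.93 ± 2.26. The differences were 4.34 and 3.27, and limma gave an adjusted p of 4.40e-08 (7.08e-10 to 0.432 over 18 alternatives, 15 of them under 0.05). Ikzf4 (Eos), a partner of Foxp3 in gene silencing, was found in 7 and 15 members and in 1 Foxp3-negative cell of each plate. Tcf7, the factor of naive and memory T cells, went the other way, as given with the genes of those cells. The median differences of the 22 tested lineage factors were 0.97 and 0.19. Of them 5 were higher (Ikzf2, Ikzf3, Ikzf4, Maf, Prdm1) and 1 lower (Tcf7), beside 3.52% and 0.845% of all genes tested. Of these, Prdm1 kept its call under 1 of 17 alternatives and Maf under 7 of 18. Tbx21, the factor of type 1 helper cells, differed by -0.12 and 0.07.

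Tnfrsf4, of the TNF receptor family, gave the widest difference of all genes tested on each plate, Foxp3 itself not being among them. Tnfrsf4 (chromosome 4, 156013843 to 156016612) had a median of 1394 FPKM in wild-type members (0 to 5455) and 1292 in members labelled knockout (0 to 7435). In Foxp3-negative cells its median was 0 on both plates, with single cells up to 1463 and 1544 FPKM, so the groups overlapped through 6 of 47 and 10 of 41 cells with the receptor. The differences were 7.57 and 6.61 (limma 7.09 ± 0.67, SE; adjusted p = 2.77e-22, 8.61e-22 to 0.432 over 18 alternatives, 17 of them under 0.05). Tnfrsf18 (chromosome 4, 156026164 to 156028895), its neighbour in the genome, was less exclusive. It was detected in 22 of 27 and 33 of 37 members, but also in 25 of 47 and 22 of 41 Foxp3-negative cells, and differed by 3.35 and 4.55.

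Tnfrsf9 (4-1BB; chromosome 4, 150914562 to 150946102), a co-stimulatory receptor of recently activated cells, was detected in 19 of 27 against 3 of 47 and in 26 of 37 against 8 of 41 cells, with differences of 6.03 and 5.52. Tnfrsf1b (TNFR2; chromosome 4, 145213463 to 145246870), a TNF receptor that supports regulatory T cells, was detected in 20 of 27 against 18 of 47 and in 31 of 37 against 19 of 41, with differences of 4.07 and 3.03. Cd27 differed by 3.28 and 2.28 and the adaptor gene Traf1 by 2.77 and 2.84. Of 18 family genes listed, 15 were tested, and 6 were higher by limma and 0 lower, beside 3.52% and 0.845% of all genes tested. Above 0 on both plates were 13 of the 15, beside 40.3% of all genes tested.

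Several of these genes carry, in the 250 bases before a transcription start of the RefSeq table, the letters TTCNNNGAA, the core of sites read by STAT factors. These starts can differ from the ends of the GENCODE genes given here: the one shown for Tnfrsf9, the second of 2 in the table, lies inside the gene, and the end of the Tnfrsf18 and Fgl2 windows does too. The motif reads alike on both strands. It was searched for because IL-2 signals through STAT5, and this choice, like that of the kappaB consensus (both strands), was made after the values had been seen. The sequences are shown for the 3 TNF receptor genes that hold the motif and for Fgl2, which encodes a secreted suppressive protein, with the motif in capitals. They are the RefSeq promoters of GRCm38.p6, 5′ to 3′ on the gene's strand, at chr4:150927749-150927998 (plus strand), chr4:156026072-156026321 (plus), chr4:145246871-145247120 (minus) and chr5:21372423-21372672 (plus).
Tnfrsf9: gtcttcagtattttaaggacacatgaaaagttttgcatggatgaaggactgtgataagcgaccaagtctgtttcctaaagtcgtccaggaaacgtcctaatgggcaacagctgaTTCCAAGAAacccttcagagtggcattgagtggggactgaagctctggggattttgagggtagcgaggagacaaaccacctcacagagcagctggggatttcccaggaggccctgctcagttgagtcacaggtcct
Tnfrsf18: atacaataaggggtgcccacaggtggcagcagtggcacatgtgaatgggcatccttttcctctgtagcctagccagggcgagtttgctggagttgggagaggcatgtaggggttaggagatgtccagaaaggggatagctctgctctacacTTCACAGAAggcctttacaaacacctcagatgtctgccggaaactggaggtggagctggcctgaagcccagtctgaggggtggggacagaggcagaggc
Tnfrsf1b: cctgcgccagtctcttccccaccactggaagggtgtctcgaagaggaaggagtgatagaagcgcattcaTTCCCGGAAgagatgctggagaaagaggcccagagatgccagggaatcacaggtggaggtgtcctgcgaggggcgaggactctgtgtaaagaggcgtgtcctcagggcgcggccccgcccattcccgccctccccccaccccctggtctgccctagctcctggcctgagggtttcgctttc
Fgl2: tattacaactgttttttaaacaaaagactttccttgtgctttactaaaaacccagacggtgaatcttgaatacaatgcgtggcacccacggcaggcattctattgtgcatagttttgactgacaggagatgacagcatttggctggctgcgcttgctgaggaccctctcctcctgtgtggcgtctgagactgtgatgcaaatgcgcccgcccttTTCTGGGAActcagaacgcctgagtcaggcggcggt

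Over all genes with a promoter in the table, 8.13% held the STAT letters before at least 1 of their starts, and 7.08% of the 4747 tested genes with one did. Among genes higher by limma and by 1 or more in both plates, 22 of those with a promoter entry (17.5%) held it. The kappaB letters were in 0.414%, 0.442% and 1.59% (2 genes) in the same order. Of the 15 widest higher genes, 13 had an entry and 5 held either string searched. Tnfrsf18, Tnfrsf9, Igtp and Serpina3g held the STAT letters and Pglyrp1 the kappaB letters. Tnfrsf4, Il2ra and Ctla4 held neither in this window, which says nothing of the factors. A match is a description of letters, no test of the shares was run, and binding was not measured.

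Of 15 tested genes of the IL-2 receptor and STAT5 pathway 4 were higher by limma (Il2ra, Il2rb, Jak3, Cish) and 2 lower (Bcl2, Bcl2l11). Of all genes tested, 3.52% were higher and 0.845% lower. Il2ra (chromosome 2, 11642807 to 11693193) had a median of 16.95 FPKM in wild-type members (0 to 464.7) and 65.77 in members labelled knockout (0 to 615.4), and medians of 0 in both Foxp3-negative sets. It was detected in 19 of 27 against 1 of 47 cells, and in 32 of 37 against 10 of 41. Wild-type Foxp3-negative cells thus nearly lacked the gene, and those labelled knockout did not. The differences were 3.85 and 4.34 (limma 4.10 ± 0.59, SE; adjusted p = 2.87e-09, 5.36e-10 to 0.432 over 18 alternatives, 15 under 0.05). Il2rb, the shared signalling chain, was detected in most CD4 cells and differed by 1.32 and 3.75. Cish, a feedback inhibitor that STAT5 induces, was detected in 17 of 27 and 30 of 37 members and in 10 of 47 and 22 of 41 other cells, with differences of 3.80 and 3.02. Bcl2, a survival gene, was lower (2 of 27 against 12 of 47 and 1 of 37 against 14 of 41 cells), as was the death gene Bcl2l11. Other STAT5 targets, such as Socs1 (0.66 and 0.75) and Pim1 (1.79 and 0.59), did not pass the test.

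**Figure D2:**
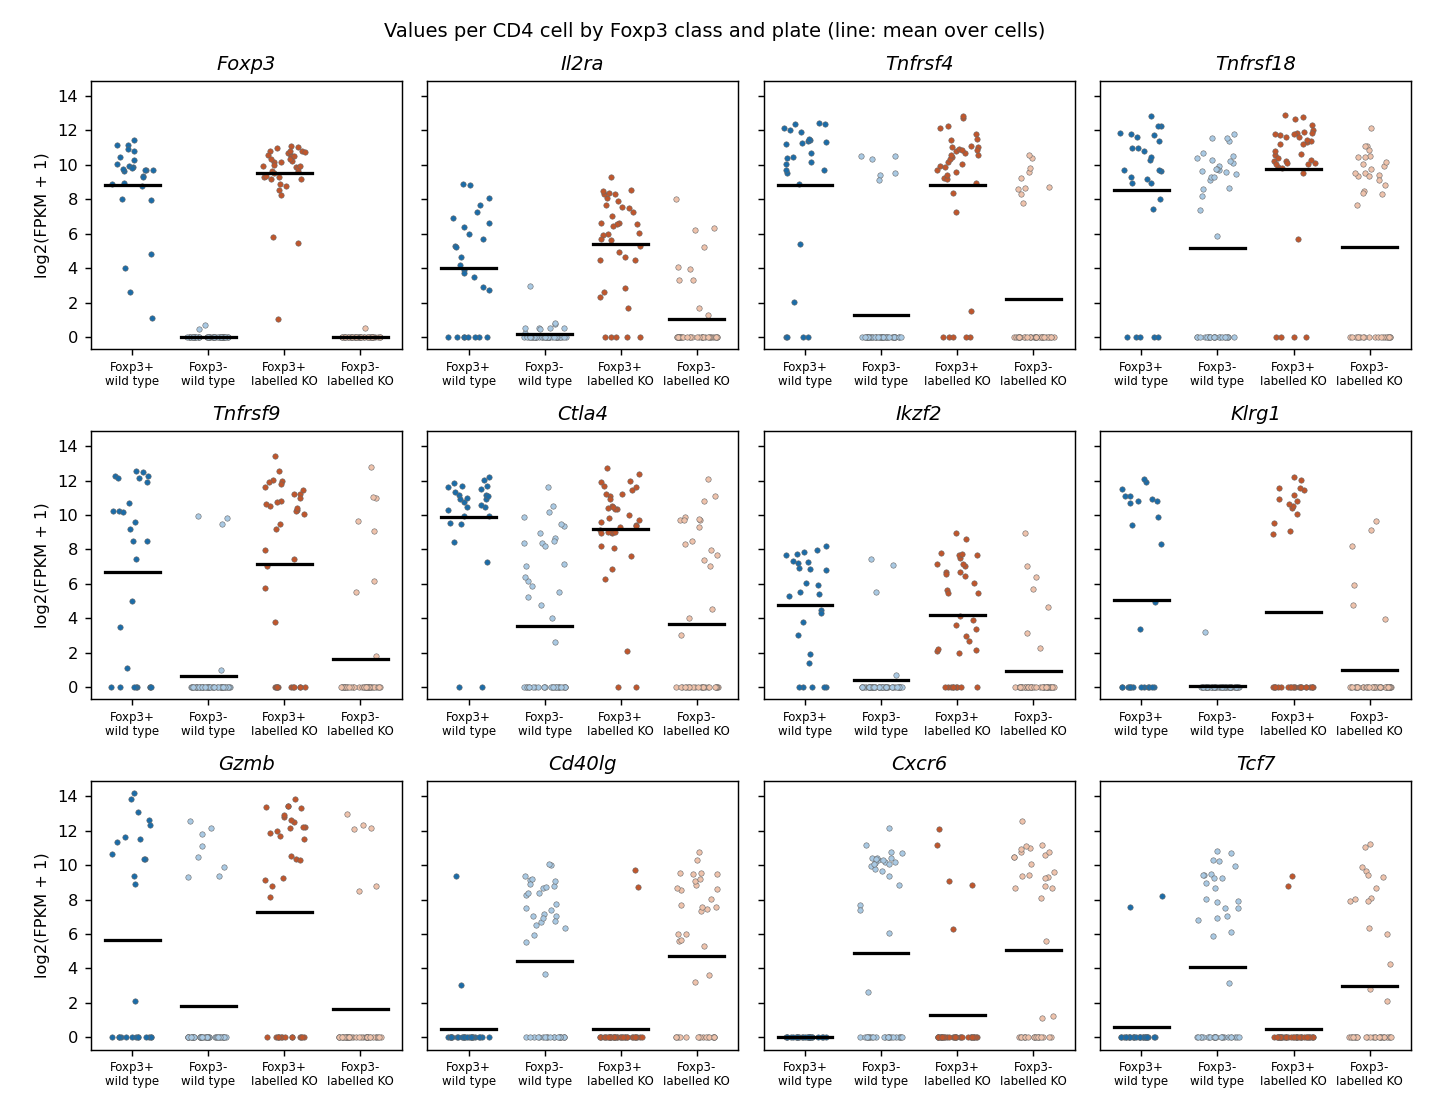
Each point is 1 CD4 cell at its log2(FPKM + 1) value, in 4 sets by Foxp3 class and plate, and the black line is the mean over the cells of a set. Foxp3 chose the sets, Tnfrsf4, Tnfrsf9, Ctla4 and Ikzf2 are high in most members of both plates, Klrg1 and Gzmb in a share of them, and Cd40lg, Cxcr6 and Tcf7 are at 0 in nearly all members.

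Of 10 tested inhibitory receptors 6 were higher in members and 1 lower, beside 3.52% and 0.845% of all genes tested, with Ctla4 in nearly every member. Ctla4 (chromosome 1, 60887000 to 60915832), which strips co-stimulatory ligands from antigen-presenting cells, was detected in 25 of 27 and 35 of 37 members, and in 22 of 47 and 18 of 41 Foxp3-negative cells. Its median was 1924 FPKM in wild-type members (0 to 4627) and 822.9 in members labelled knockout (0 to 6730), against medians of 0. The differences were 6.35 and 5.53. Klrg1, a marker of short-lived effector cells and of activated regulatory T cells, was found in 14 of 27 members and 15 of 37, but in 1 of 47 and 6 of 41 other cells. Tigit differed by 3.38 and 3.08, Havcr2 (TIM-3) by 2.70 and 1.44 and Lag3 by 3.34 and 1.63. Cd96 was lower (-1.22 and -2.49). Pdcd1 (PD-1) was detected in 10 of 27 and 5 of 37 members and in 15 of 47 and 14 of 41 others, with differences of 0.92 and -1.66 (adjusted p = 0.853, limma). Btla gave -0.21 and -0.56 and did not pass either, and the list medians were 2.81 and 1.30.

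Genes of suppressive effector molecules were higher in a similar way, though most were found in a minority of members. The lists share genes, so their counts are not separate results. Of the suppressive genes called higher, Areg, Ctla4, Ebi3, Entpd1, Il10 and Lrrc32 are also in the signature. Ctla4, Entpd1 and Lag3 are also listed as inhibitory receptors. Tnfrsf4, Tnfrsf9 and Tnfrsf18 of the TNF receptor list, Il2ra and Il2rb of the IL-2 list, and Klrg1 are signature genes too. Gzmb (granzyme B; chromosome 14, 56258838 to 56262260) was detected in 14 of 27 and 23 of 37 members, with up to 18337 and 14455 FPKM, and in 8 of 47 and 6 of 41 other cells. It differed by 3.79 and 5.63 (limma 4.71 ± 0.66, SE; adjusted p = 1.23e-09, 1.98e-09 to 0.432 over 18 alternatives, 16 under 0.05). Fgl2 was detected in 15 and 19 members and differed by 3.67 and 3.01. Ebi3, the shared chain of the cytokines IL-27 and IL-35, was found in 8 and 9 members and in 1 and 0 other cells. Il10, the anti-inflammatory cytokine, was found in 7 and 8 members against 2 and 3 other cells (2.11 and 1.33). Areg, a tissue repair factor, was found in 5 and 15 members against 0 and 8 (1.89 and 2.11).

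Lrrc32 (GARP), which holds latent TGF-beta at the cell surface, was detected in 9 of 27 and 15 of 37 members and in 0 and 4 other cells. Entpd1 (CD39), which breaks down extracellular ATP, was detected in 14 of 27 against 4 of 47 cells and in 10 of 37 against 5 of 41 (2.93 and 1.16). Its partner Nt5e (CD73) was not higher in members, with 3 of 27 against 8 of 47 and 13 of 37 against 12 of 41 cells. Of 16 listed molecules 12 were tested, and 9 were higher and 0 lower, beside 3.52% and 0.845% of all genes tested. A gene such as Ebi3, found in 8 and 9 members against 1 and 0 other cells, passed the detection filter only through members. This count therefore describes the list and is no evidence of its direction. Tgfb1, Il12a, Prf1 and Itgb8 did not pass the detection filter. At least 1 of Il10, Ebi3 and Areg was detected in 15 of 27 wild-type members and 24 of 37 labelled knockout, and in 3 of 47 and 9 of 41 other cells, a combination chosen after the values were seen.

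**Figure D3:**
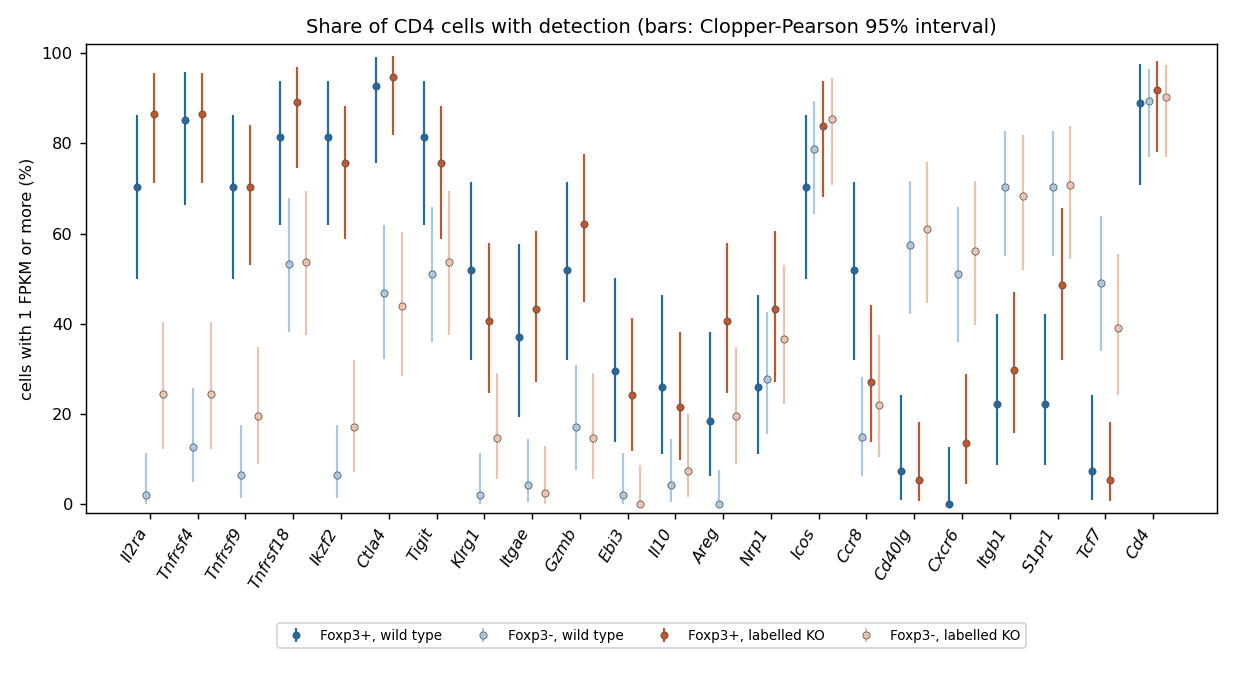
Points are the share of CD4 cells with 1 FPKM or more of a gene in each of the 4 sets, and bars are its 95% interval from counting. Il2ra, Tnfrsf4, Tnfrsf9 and Ikzf2 are found in 70% or more of members, Icos, Nrp1 and Cd4 differ little between the classes, and Cd40lg, Cxcr6 and Tcf7 are found in at most 14% of members.

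Some genes used as marks of regulatory T cells did not separate these cells. Nrp1, a surface mark of thymic regulatory T cells, was detected in 7 of 27 against 13 of 47 and in 16 of 37 against 15 of 41 cells, with differences of -0.52 and 0.38. Icos, a co-stimulatory receptor, was detected in 70.4% and 83.8% of members and 78.7% and 85.4% of other cells. Ccr8, a chemokine receptor of tumour regulatory T cells, was detected in 14 of 27 against 7 of 47 wild-type cells but in 10 of 37 against 9 of 41 labelled knockout. Its differences were 3.50 and 0.49 (limma adjusted p = 0.0219, 0.00338 to 0.967 over 18 alternatives, 7 under 0.05), so the difference was wide on 1 plate only. Gpr83, Plagl1 and Penk did not pass the detection filter.

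Receptors that place T cells in tissue differed in both directions. Itgae (CD103; chromosome 11, 73090583 to 73147446), the integrin chain that binds epithelial cadherin, was detected in 10 of 27 and 16 of 37 members against 2 of 47 and 1 of 41 others (2.76 and 3.84). Itgb7, which pairs with it, differed by 3.46 and 0.30. Cxcr6 (chromosome 9, 123806475 to 123811760), a receptor of tissue-resident effector T cells, was detected in 0 of 27 wild-type members, which allows a share of up to 11.1% (Clopper-Pearson 12.8%), and in 24 of 47 other cells. On the plate labelled knockout it was in 5 of 37 against 23 of 41 (differences -4.87 and -3.82; limma -4.34 ± 0.60, SE; adjusted p = 6.57e-10, 1.22e-11 to 0.432 over 18 alternatives). Itgb1, the chain shared by integrins that bind matrix, was lower, at 6 of 27 against 33 of 47 and 11 of 37 against 28 of 41 cells. S1pr1, the exit receptor of lymphoid tissue, differed by -3.44 and -2.05.

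Of 6 tested helper cytokines and ligands 2 were lower in members (Cd40lg, Fasl) and 1 higher (Ltb), beside 0.845% and 3.52% of all genes. Cd40lg (chromosome X, 57212143 to 57224042), with which helper T cells license B cells and dendritic cells, was detected in 2 of 27 and 2 of 37 members against 27 of 47 and 25 of 41 others. Its differences of -3.99 and -4.21 were among the widest on the lower side (limma -4.10 ± 0.58, SE; adjusted p = 1.45e-09, 3.51e-11 to 0.432 over 18 alternatives, 15 under 0.05). Fasl, the death ligand, was detected in 2 and 3 members against 16 and 15 others. Ltb (lymphotoxin beta) went the other way, higher by 1.88 and 3.90. The other 14 of the 20 listed did not pass the detection filter. Il2 was detected in 0 members of either plate and Ifng in 0 and 1, against 2 and 3 and 4 and 6 other cells. Cd40lg, Il2 or Ifng was found in 2 of 27 and 2 of 37 members and in 32 of 47 and 25 of 41 others, a combination also chosen after the values were seen.

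Of the genes of naive and memory cells, Tcf7 (TCF-1; chromosome 11, 52252371 to 52283014) was detected in 2 of 27 and 2 of 37 members against 23 of 47 and 16 of 41 other cells. The differences were -3.49 and -2.50 (limma adjusted p = 8.88e-06, 4.89e-07 to 0.812 over 18 alternatives, 15 under 0.05). Ccr7 differed by -0.84 and -0.24 (adjusted p = 0.664, limma). Of 10 tested genes of this list 1 was higher and 2 were lower, beside 3.52% and 0.845% of all genes tested.

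Genes with other roles among the 15 widest on the higher side were Capg, an actin-capping protein (5.17 and 3.44), Glrx, a thiol reductase (3.93 and 4.51), Pglyrp1, a peptidoglycan-binding protein (4.55 and 3.93), Serpina3g, a protease inhibitor of activated T cells (4.43 and 3.11), Gimap7, a GTPase of lymphocytes (3.27 and 4.20) and Igtp, an interferon-induced GTPase (3.15 and 4.44). On the lower side, besides those given above, were Slfn1, a regulator of T cell quiescence (-3.15 and -3.23), Ctsw, a protease of cytotoxic cells (-2.19 and -3.70), Sema4a (-2.16 and -2.15), Gramd3 (-4.67 and -2.10) and Gpr183, a receptor for oxysterols (-2.16 and -2.08). Folr4 (Izumo1r, folate receptor 4), known from regulatory T cells, was found in 13 of 27 and 26 of 37 members and in 9 and 7 other cells. These genes were taken by a rule of size and agreement between the plates.

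Interferon-linked genes were higher in part. Of 17 tested interferon-stimulated genes 5 were higher by limma and 0 lower (Gbp3, Gbp7, Igtp and Isg20 among them), with medians of 0.88 and 1.40. Gbp3, an interferon-induced GTPase, was detected in 8 of 27 against 4 of 47 and in 19 of 37 against 4 of 41 cells and differed by 1.31 and 3.42. Irf7, a factor of the interferon response, gave -0.19 and 0.47. In the IL-27 pathway list 6 of 17 tested genes were higher (Il10, Irf1, Ly6a, Maf and Prdm1 among them) and 1 was lower, Il12rb2. Both lists stand beside 3.52% higher and 0.845% lower over all genes tested. Il27ra itself differed by -0.04 and 0.77.

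Glycolysis genes leaned higher, with 13 of 14 tested above 0 on both plates, beside 40.3% of all genes, and 6 called by limma, beside 3.52%. Pgam1 differed by 3.84 and 2.84, Pgk1 by 2.39 and 2.56 and Tpi1 by 2.89 and 1.91, while Hk2 did not pass the detection filter. Of 16 tested proliferation genes 4 were higher (H2afz, Mcm5, Tk1, Top2a), beside 3.52% of all genes, and H2afz kept its call under 2 of 18 alternatives. At least 8 of the 24 proliferation genes were detected in 9 of 27 and 12 of 37 members (33.3% and 32.4%) and in 8 of 47 and 8 of 41 other cells (17% and 19.5%), with intervals of 16.5 to 54 and 18 to 49.8 against 7.65 to 30.8 and 8.82 to 34.9 that overlap. Housekeeping genes had medians of 0.49 and 0.14, near those of all genes, although Gapdh and Pgk1 of that list were called higher. Cholesterol synthesis had 1 of 11 tested genes higher and 0 lower, beside 3.52% and 0.845% of all genes.

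**Figure D4:**
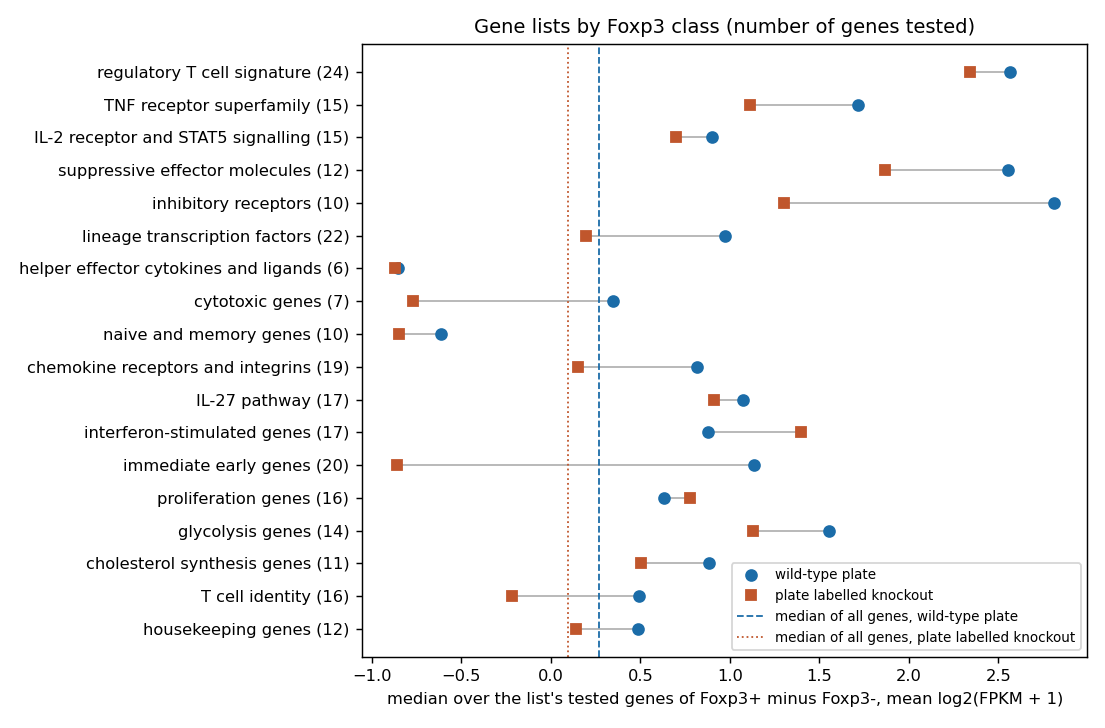
Circles (wild-type plate) and squares (plate labelled knockout) give the median over the tested genes of each list of the difference between Foxp3-positive and Foxp3-negative CD4 cells, with the number of genes in brackets, and the vertical lines give the medians of all genes tested (0.27 and 0.10). Signature, suppressive and inhibitory receptor lists, which share genes, lie to the right on both plates, and the immediate early list lies on opposite sides (1.13 and -0.86).

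Immediate early genes, which T cells switch on within minutes of a stimulus, were among the lists on which the plates parted. Cytotoxic and T cell identity genes, given further below, were others. The median difference of the immediate early genes was 1.13 on the wild-type plate and -0.86 on the plate labelled knockout. Of the 20 tested, 14 (70%) were higher in wild-type members and lower in members labelled knockout, beside 25.8% of all genes tested. The 4 sets did not keep one order. Fos, a subunit of AP-1, had mean log2 values of 4.81 in members and 3.48 in other cells of the wild-type plate, and 6.96 and 9.17 on the plate labelled knockout. Nr4a1, a target of the T cell receptor, stood at 6.80 and 3.26 and then at 5.75 and 7.57. Between the plates, labelled knockout minus wild type, the list median was 0.44 in members and 2.27 in Foxp3-negative cells, a pair whose difference was not tested. The population wells of the whole CD4 gate had 1650 and 4032 FPKM of Fos.

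By limma 2 of the 20 tested genes of that list were higher in members of both plates, beside 3.52% of all genes tested. They were Dusp1 (3.77 and 1.42) and Nfkbia (3.40 and 0.95), both of which encode feedback inhibitors of signalling. Btg2, an antiproliferative gene, was lower (-2.84 and -1.74), as were 0.845% of all genes tested. Genotype label, source and plate cannot be told apart for this contrast either.

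**Figure D5:**
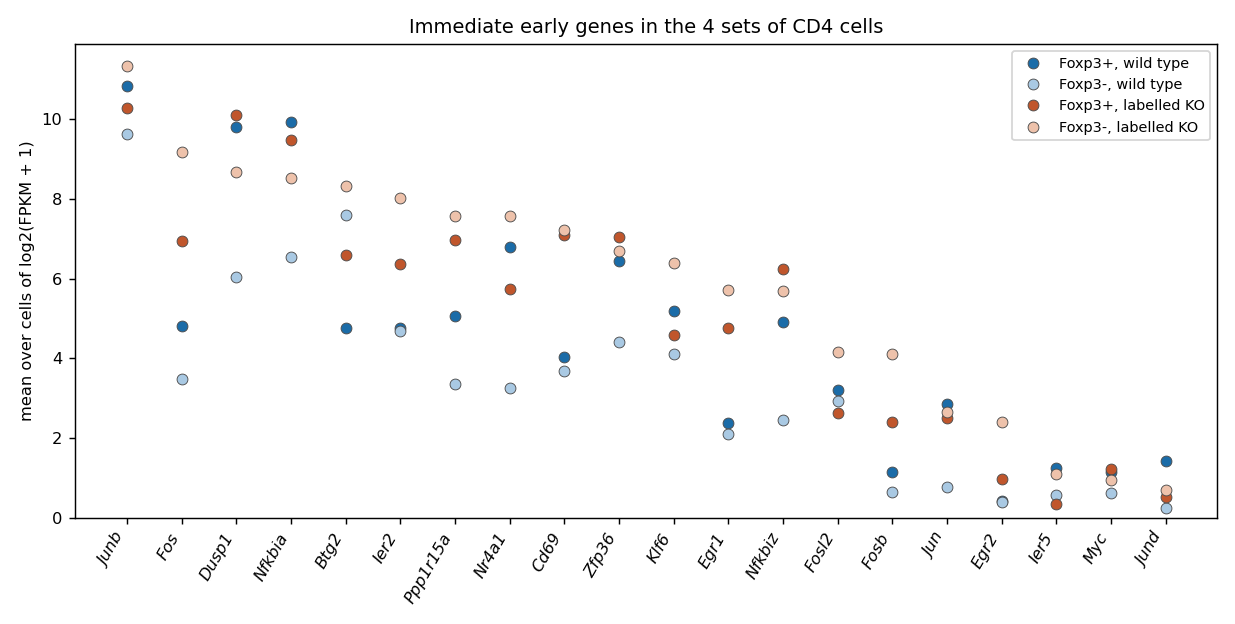
Points are the mean over cells of log2(FPKM + 1) of the 20 tested immediate early genes in the 4 sets of CD4 cells, ordered by the Foxp3-negative set of the plate labelled knockout. That set is highest for 12 of the 20 genes, Fos (9.17) and Junb among them, and the wild-type Foxp3-negative set is lowest for 17.

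Within the members, genes were found together to differing degrees. Tnfrsf4 and Tnfrsf9 were detected in the same cell in 17 of 27 and 25 of 37 members, and Ctla4 and Tigit in 20 of 27 and 27 of 37. Klrg1 marked 14 and 15 members. Gzmb was detected in 9 of 14 Klrg1-positive against 5 of 13 Klrg1-negative wild-type members, and in 13 of 15 against 10 of 22 labelled knockout. Il2ra was in 12 of 14 against 7 of 13 and in 14 of 15 against 18 of 22, and Itgae in 6 of 14 against 4 of 13 and in 10 of 15 against 6 of 22. Tcf7 was in 0 Klrg1-positive members of either plate and in 2 of 13 and 2 of 22 Klrg1-negative ones. Such shares move with the depth of a cell, the pairs were chosen after the values were seen, and no test was run. The wild-type members lowest in Foxp3, at 1.12, 5.18, 15.09 and 27.03 FPKM, were all Klrg1-negative. Those at 5.18 and 27.03 FPKM were the 2 wild-type members with Tcf7, and both had 0 FPKM of Il2ra and Ikzf2. Il2ra was also 0 in the cell at 1.12 FPKM and was 457.2 FPKM in the cell at 15.09. The Klrg1 contrasts were not repeated without these members. Ebi3 went opposite ways on the plates. With Itgae it was in 1 of 10 members and without it in 7 of 17 on the wild-type plate, and in 7 of 16 and 2 of 21 on the other.

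Members of the plate labelled knockout were set against wild-type members by size alone, since each label has 1 plate and no replicate check. Of 6271 genes, 5.21% were higher by 1 or more and 13% lower, with a median of -0.15 over all genes. After centring on that median the shares were 7.72% and 9.76%, and in cells paired on detected genes 12% and 10.3%, so the excess of lower genes moved with both. In Foxp3-negative cells 5.74% were higher and 5.25% lower, and 48 genes higher and 61 lower were shared with the members. The signature list had a median of 0.48 in members and 0.63 in other cells, with 8 of its 24 tested genes higher by 1 or more in members and 2 lower. The 8 higher were Areg (2.20), Icos (1.97), Nrp1 (1.56), Folr4 (1.56), Il2ra (1.39), Il1rl1 (1.35), Tnfrsf18 (1.26) and Nt5e (1.08). The 2 lower were Ccr8 (-2.38) and Entpd1 (-1.45), while Tnfrsf4 stood at 0.01 and Ctla4 at -0.69.

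The widest higher genes of members labelled knockout included Cd69, an early activation and retention receptor (3.06), Zfp868 (3.26), Serinc3 (2.94), Pcna, the replication clamp (2.71), Uba7, which attaches the interferon-induced Isg15 protein (2.67), and Ms4a4b (2.66). Cd69 was higher by 3.54 in Foxp3-negative cells as well, and Zfp868 by 2.02. Cish differed by 2.34 in members and by 3.11 in other cells. The widest lower genes were Ncf4, a subunit of the phagocyte oxidase (-3.73), Tspan13 (-3.61), Id2, a helix-loop-helix inhibitor (-3.57), Pfdn5 (-3.03), Bcl2a1d (-2.96) and Idh3b, a subunit of a mitochondrial dehydrogenase (-2.86). Id2 had a median of 730.2 FPKM in wild-type members (19 of 27 cells) and 0 in those labelled knockout (16 of 37 cells), while it was in 28 of 47 and 29 of 41 Foxp3-negative cells and differed by 0.53 there. The population wells, which hold the whole CD4 gate, had 991.9 and 1421 FPKM of Id2.

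Glycolysis genes had a label median of -0.53 in members and -0.16 in other cells, with 5 of 14 lower by 1 or more and 0 higher, and cholesterol synthesis genes -0.96 and -0.18, with 5 of 11 lower. Interferon-stimulated genes had 0.82 and 0.27, with 6 of 17 higher and 1 lower. IL-27 pathway genes had 0.36 and 0.34. Over all genes tested the medians were -0.15 and 0.02, and in members 5.21% were higher by 1 or more and 13% lower. The list counts were not taken after centring or pairing, with which the share of lower genes moved. None of these lists has a replicate check.

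Melanoma, myeloid, B cell and NK cell markers were low in most members, and markers of other cells were uneven between plates. Tyr, a melanocyte gene, was detected at low values in every member (mean log2 3.27 and 3.21) and in nearly every Foxp3-negative cell (3.01 and 3.23), while 4 of the 7 melanoma markers were at 0 in every member of each plate. The summed melanoma markers had medians of 8.40 and 9.61 FPKM in members, with ranges of 2.60 to 31.57 and 2.23 to 548.6. The 12 myeloid markers summed to a median of 0 in all 4 sets, with single cells up to 27312 and 942 FPKM in members and 135458 and 44152 in others. B cell markers had medians of 0.45 and 0 in members, and all 3 NK cell markers were at 0 in every member. Dendritic cell and MHC class II markers summed to medians of 24.33 and 1.3 FPKM in members and 0.63 and 0.59 in others. They reached 14958 and 963.4 in members and 40429 and 36096 in others. At least 2 markers of the 6 lists of other cell types, Tyr included, were detected in 25 of 27 and 31 of 37 members and 35 of 47 and 27 of 41 others. Counting melanoma, myeloid and B cell markers besides Tyr, 7 of 27 wild-type members and 1 of 37 labelled knockout held 2 or more, as did 7 of 47 and 4 of 41 others. Without those cells limma called 3.55% of genes higher and 0.684% lower, and 7.29% and 1.11% were alike in both plates.

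Cd74, the chaperone of MHC class II, was detected in 13 of 27 and 14 of 37 members against 5 of 47 and 3 of 41 others (2.92 and 2.07; limma adjusted p = 0.000515, 7.56e-05 to 0.956 over 16 alternatives, 12 under 0.05). With arithmetic means its difference turned to -0.15. H2-Ab1, a class II chain, was in 5 and 0 members and 2 and 2 others, and both were found in 4 of 27 and 0 of 37 members. The part of RNA from antigen-presenting cells in the value of Cd74 was not tested.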

How the data were processed

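Single T cells and small populations from B16F10 melanomas had been sequenced by Smart-seq2 in 4 plates of 96 wells, each with 94 single cells, 1 population well and 1 well without a cell. The deposited values are FPKM over 23420 gene symbols and 384 wells, TMM-normalized across wells by the authors, per the name of the deposited table. Bowtie, RSEM and mm10 are named in the submitters' processing notes, with no version there. The libraries had 21 cycles of PCR, per the labels' protocols. Of values under 10 estimated reads, in genes with a single transcript, 46.3% lay within 0.1 of a whole number, where an even spread gives 20%, so reads were not recovered and no count model was used. The depth in reads is unknown. A fitted value for 1 read in a gene of 2 kb had medians between 0.844 and 0.980 FPKM over the 4 sets of CD4 cells.

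A gene was detected at 1 FPKM or more. Cells with 1000 or more detected genes were kept, 74 and 78 of 94 on the CD4 plates, and 0 of them held the same values as another well. Cells were split at Foxp3 of 1 FPKM, and per plate and class the mean of log2(FPKM + 1) was taken (pseudocount 1). Genes detected in 10% or more of these cells were fitted with limma 3.58.1 (R 4.3.3; lmFit on the 4 means with the plate as a block, eBayes with trend), with Benjamini-Hochberg adjustment over 6271 genes and Foxp3 left out. The prior degrees of freedom were infinite, so one trend of spread served all genes. The labels name no separate animals within a plate. P-values and SE rest on the spread between these plates along that trend over all genes, not on a gene's own spread. Ccr8, with differences of 3.504 and 0.4914, had an SE of 0.5855, and Klrg1, with 5.005 and 3.333, had 0.5876. Knockout and wild-type labels were compared within a class by size, 1 log2 or more. Other steps ran in Python 3.11.15. The fit was tested on means simulated from the spread over cells, with the same change on both plates. It thus held no difference of that change between plates. Limma called 0 of 50 genes changed by 1 log2, 34% at 2, 66% at 3 and 100% at 4, and 0 of 6072 unchanged ones. A gene that did not pass can therefore still differ.

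The genes named were the markers and signature list, the 15 higher and 10 lower genes with the widest smaller-of-both plate difference, up to 4 of each other list by that size, and the 8 widest in each direction between labels among genes in 25% of members. Other genes named were chosen after their values were seen. The members and the gene lists were chosen with earlier results of these data known. Promoters are the RefSeq table of GRCm38.p6 and gene coordinates GENCODE M21. Alternatives covered the pseudocount, both filters, the Foxp3 threshold, the block, paired cells, marker-holding cells, shares of cells and the trend. Those with Foxp3 at 100 FPKM or more against 0, centring, arithmetic means, pairing on estimated depth and the narrower marker rule were chosen after seeing the data. Results for some genes of the lists are not reported here.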

Additional observations from a re-analysis of the deposited data

Results flagged for a closer look

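Several values went opposite ways on the plates, and the difference between the plates was not tested for any of them. Positive minus negative, wild type first and then the plate labelled knockout, Nrp1 gave -0.52 and 0.38, Icos -0.38 and 0.86 and Zfp868 -0.47 and 0.77. Genes that were higher in wild-type members and lower in members labelled knockout were Id2 (1.36 and -2.74), Pfdn5 (2.55 and -1.12), Bcl2a1d (1.29 and -2.29), Slc35c2 (2.28 and -0.58), Cope (2.47 and -0.97) and Idh3b (3.28 and -1.98). These 6, like Zfp868, had been named for their width between the labels in members, so an opposite sign is partly set by that choice. List medians with opposite signs were those of cytotoxic genes (0.35 and -0.77), immediate early genes (1.13 and -0.86) and T cell identity genes (0.49 and -0.22).

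Foxp3 at 1 FPKM or more was also found in kept cells of a CD8 plate. On the CD8 plate labelled knockout 2 of 77 kept cells had Foxp3 at 1 FPKM or more (2.60%, Clopper-Pearson interval 0.316 to 9.07), at 1.18 and 600.5 FPKM. The second cell had 1538 FPKM of Cd8a, 1774 of Cd8b1 and 0 of Cd4, together with 3287 of Tnfrsf4, 2925 of Tnfrsf18, 1068 of Ctla4, 47.5 of Ikzf2 and 0 of Il2ra. Of 72 kept cells on the wild-type CD8 plate 0 had Foxp3 at 1 FPKM or more, which allows a share of up to 4.17% by the limit of 3 counts and 4.99% by Clopper-Pearson. On that plate 1 kept cell had a value above 0 and under 1 FPKM. A further 1 well, dropped for its gene number, had 1 FPKM or more. Whether the well at 600.5 FPKM held more than 1 cell was not tested.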

How the results depend on the processing

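Numbers here are percent of genes tested, higher and then lower, unless another unit is given. The calls by limma, 3.52 and 0.845, were 4.21 and 0.754 among genes in 25% of cells, 1.09 and 0.208 with no gene filter, 0.601 and 0.182 in cells with 2000 or more genes, 0.542 and 0.0957 with Foxp3 at 10 FPKM or more, 0.765 and 0.159 without the plate block, 1.58 and 0.447 on shares of cells, and 1.52 and 0.239 without the trend. Pairing on detected genes gave 1.53 higher, centring 2.2 higher, and Foxp3 at 100 FPKM or more against 0 gave 0.547 lower. Arithmetic means and pairing on estimated depth gave 0.0319 and 0. Leaving out every cell with 2 or more markers of other cell types, Tyr included, gave 0 and 0 by limma (1.94 and 9.35 at an unadjusted p under 0.05), on 2 and 6 members. Genes alike in both plates, 5.47 and 1.1, became 0.877 and 0.175 at 2 log2, 10.2 and 1.99 with pseudocount 0.1, 1.82 and 0.303 with pseudocount 10, and 3.64 and 2.62 on pairing by detected genes. The lower were 0.656 in cells with 500 or more genes, 2.18 with 2000 or more, 8.04 without the marker-holding cells and 3.05 by arithmetic means. A single plate gave 12.1 to 18.7 higher and 3.76 to 5.52 lower. Between labels, 5.21 and 13 became 10.7 and 23.2 (pseudocount 0.1), 1.16 and 3.06 (pseudocount 10) and 31.3 and 30.7 (no marker-holding cells). The lower were 16.5 among genes in 25% of cells, and the higher 8.95 with 2000 or more genes, 12 on pairing by detected genes and 14.4 by arithmetic means. Fewer genes or cells entered some of these fits, and beyond that the cause was not tested. Signs, on the log2 scale, turned for Nrp1 (0.028 with pseudocount 0.1, 0.11 with 500 or more genes, 0.23 without all marker-holding cells and 0.18 without those of the narrower rule, 0.052 with Foxp3 at 100 or more, 0.25 on estimated depth, 2.46 percentage points of cells), Icos (-0.24 by detected genes, -0.44 by depth, -4.97 points), Nt5e (0.23 with 2000 or more genes), Fdft1 and Sqle (-0.014 and -0.14 by detected genes), Lyz2 (2.37 points) and Cd74 (-0.15, arithmetic). Without all marker-holding cells they turned for Maf (-0.46), Pgam1 (-0.014), Fdft1 (-1.68) and Cd28 (1.04), and between labels for Pcna (-0.98) and Uba7 (-4.27). Of 66 named genes past the threshold, 62 stayed past it with Foxp3 at 100 FPKM or more against 0, 60 without cells of the narrower marker rule, 58 centred, 43 paired on detected genes, 36 without the block and 2 by arithmetic means. The classes were compared within plates through the plate block. No paired analysis was possible because, between the genotype labels, no number ties a plate or cell of one genotype to one of the other.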
